A study of Mus musculus with 24 samples.

Results

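The data are 24 single mouse fetal liver cells that were isolated as BFU-E, the burst-forming progenitors of the red cell lineage. Among them, 11 cells with Cd24a transcripts were set against 8 cells with few or no Cd24a counts. The cells were chosen by measured values, their Klf1 and Cd24a levels. Both sides were limited to cells with erythroid identity at the RNA level, taken as Klf1 at 10 CPM (counts scaled to a common library total of 1e6) or more, since Klf1 encodes the erythroid Krüppel-like transcription factor. A cell was called Cd24a-detected at 5 or more Cd24a counts and Cd24a-undetected under 5 counts, and 5 of the 24 cells were left out because Klf1 was under 10 CPM. Every gene with 5 or more counts in at least 6 of the 19 kept cells was then compared between the sides, apart from Cd24a itself.

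All cells came from C57/Bl6J embryos at embryonic day 14.5, and no genotype, treatment or time distinguishes them. Red cells had been lysed, cells carrying CD41, CD16/32, Sca-1, Ter119, CD11b, Ly-6G, CD45R or CD3e had been removed with magnetic beads, and the remainder were labelled with antibodies to CD24, CD71 and CD117 before single cells were sorted into wells for Smart-seq2, which reads polyadenylated RNA along its length. The labels list the CD71 and CD24 antibodies with the same fluorescent dye and the sources used here give no gate boundaries, so the surface CD24 of a cell is not known from these data. No embryo is named for any cell, so the 24 cells are 1 sample, and the differences below are descriptions of these cells with no p-value or standard error.

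CD24 is a small, heavily glycosylated protein held in the outer leaflet of the plasma membrane by a glycosylphosphatidylinositol (GPI) anchor, a lipid that is built in the endoplasmic reticulum and attached to the finished protein. It has no cytoplasmic domain, and its signals are thought to pass through partners in the membrane and Src-family kinases. In mouse fetal liver, progenitors with less surface CD71 and CD24 are enriched for BFU-E, and those with more of both antigens for the more mature colony-forming units-erythroid (CFU-E).

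Cd24a (ENSMUSG00000047139, GRCm38 chromosome 10, 43578284 to 43584265) chose the sides, so its own values carry no comparison. Its lowest, median and highest levels were 18.6, 115 and 388 CPM in the 11 Cd24a-detected cells, against 0, 0.833 and 1.55 CPM in the 8 Cd24a-undetected cells. The values lie far apart at the threshold. The nearest Cd24a-detected cell was cell 16, with 36 counts and 18.6 CPM, and the nearest Cd24a-undetected cells were cells 5 and 18, with 3 counts each and 1.55 and 1.39 CPM. After each cell was thinned to 1135880 counts, the lowest Cd24a-detected cell kept 26 counts of Cd24a and the highest Cd24a-undetected cell 2 counts.

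Klf1 (ENSMUSG00000054191, chromosome 8, 84901928 to 84905291) was the other gene of the rule. It had 314, 544 and 1008 CPM in Cd24a-detected cells, against 32.4, 439 and 903 CPM in Cd24a-undetected cells, as lowest, median and highest. The kept cell nearest the threshold was cell 10, a Cd24a-undetected cell with 32.4 CPM, and the nearest cell left out was cell 24, with 8.12 CPM. Cell 10 also stood apart in its hepatocyte transcripts, described further on, and the main values that depend on it are given with and without it.

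The sides had much the same depth and library quality. Total counts ran from 1135880 to 1935255 with a median of 1607814 in Cd24a-detected cells, and from 1149972 to 2155010 in Cd24a-undetected cells. Genes with 5 or more counts had medians of 6229 and 5932.5 on the Cd24a-detected and Cd24a-undetected sides, or 6141 and 5748 after thinning. Mitochondrial transcripts took 2.18 to 4.38% of counts in Cd24a-detected cells and 2.36 to 4.50% in Cd24a-undetected cells. The floor, the level of 3 counts that a listed 0 still allows, was 1.55 to 2.64 CPM in Cd24a-detected cells and 1.39 to 2.61 CPM in Cd24a-undetected cells. Plate columns 1, 2 and 3 held 4, 4 and 3 Cd24a-detected cells and 2, 3 and 3 Cd24a-undetected cells, so each column gave a difference of its own.

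**Figure D1:**
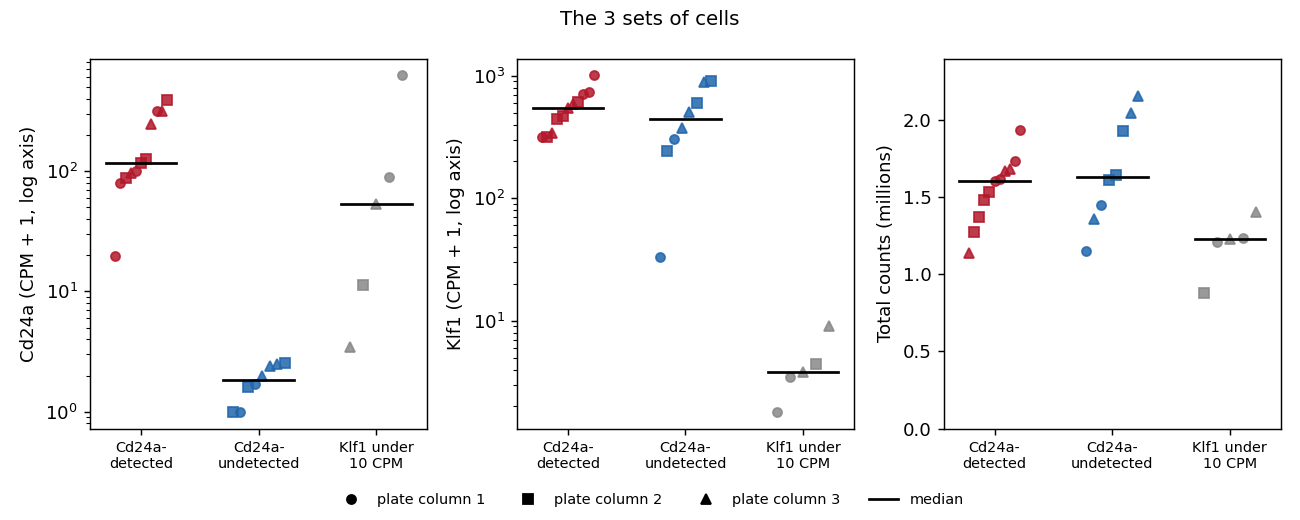
Cd24a level, Klf1 level (both CPM + 1, log axis) and total counts in each cell of the Cd24a-detected side, the Cd24a-undetected side and the 5 cells left out for Klf1 under 10 CPM. Points are cells, their shape gives the plate column and bars are medians. The Cd24a-detected cells start at 18.6 CPM of Cd24a and the Cd24a-undetected cells end at 1.55 CPM, while total counts overlap.

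Throughout, the difference of a gene is its mean log2(CPM + 1) over Cd24a-detected cells minus that over Cd24a-undetected cells, and a gene is called higher at 1 or more and lower at -1 or less. Of the 7672 genes compared, 1419 were higher (18.5%) and 935 were lower (12.2%) in Cd24a-detected cells, and the median difference was 0.11. Differences ran from -4.21 to 4.95, and 355 genes were higher by 2 or more while 203 were lower by as much. For 0 of the 7672 genes (0.0%) did the ranges of the sides stay apart. Among the 5067 genes with 5 or more counts in at least 12 kept cells, 813 (16%) were higher and 489 (9.65%) lower. The difference had the same sign in all 3 plate columns for 688 of the 1419 higher genes and 452 of the 935 lower genes.

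**Figure D2:**
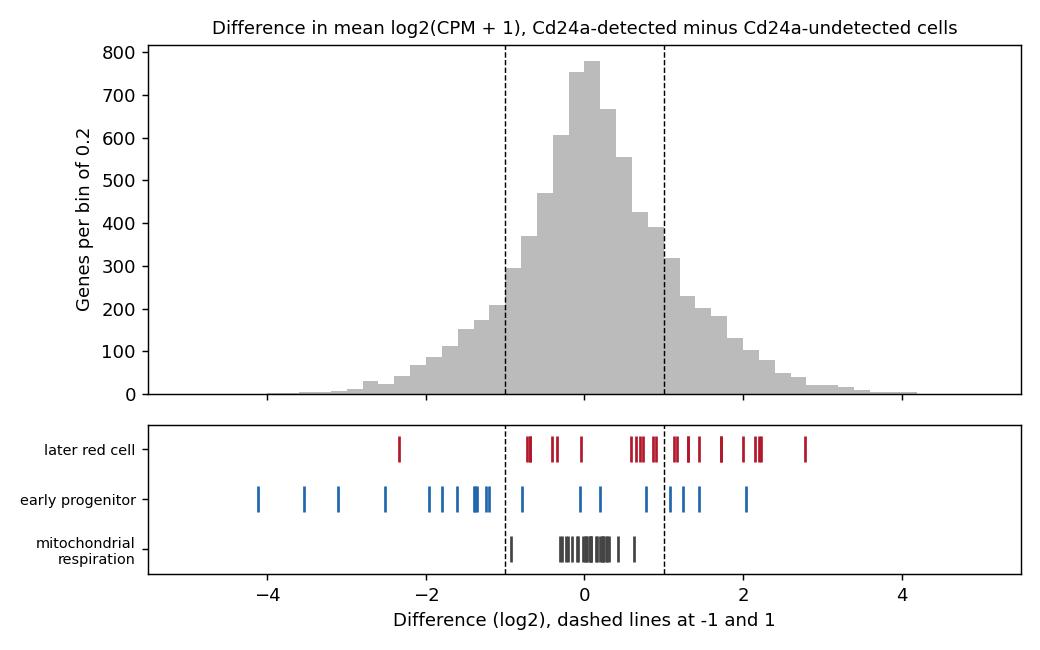
Differences in mean log2(CPM + 1), Cd24a-detected minus Cd24a-undetected cells, for the 7672 genes compared (upper panel, genes per bin of 0.2) and for the members of 3 gene lists (lower panel, 1 tick a gene), with dashed lines at -1 and 1. Ticks of later red cell genes lie mostly above 0 (18 of 25), those of early progenitor genes mostly below (6 of 20 above 0), and those of mitochondrial respiration between -0.92 and 0.62.

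The other antigens of the sort differed in opposite directions. Tfrc (ENSMUSG00000022797, chromosome 16, 32608920 to 32632794), which encodes the transferrin receptor CD71, had 2.64, 72.0 and 221 CPM in Cd24a-detected cells, against 0.69, 3.85 and 158 CPM in Cd24a-undetected cells, as lowest, median and highest. It reached 5 counts in 10 of 11 Cd24a-detected cells and 5 of 8 Cd24a-undetected cells, or 10 and 3 cells after thinning. The ranges overlap widely, since Cd24a-undetected cells 6, 8 and 18 had 75.6, 94.2 and 158 CPM and Cd24a-detected cell 3 had 2.64 CPM. The Tfrc difference was 2.37, it was 4.33, 3.17 and 0.28 within plate columns 1, 2 and 3, and it stayed between 1.99 and 2.93 with any 1 cell left out.

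Kit, which encodes CD117, the stem cell factor receptor of early progenitors, was present in every kept cell. Its levels were 71.4, 246 and 553 CPM in Cd24a-detected cells, against 128, 362 and 767 CPM in Cd24a-undetected cells. The difference of -0.79 did not reach a call, although Cd24a-detected cells had the lower Kit level in 68 of the 88 pairs of 1 Cd24a-detected and 1 Cd24a-undetected cell. Of 9 genes for antigens used in the depletion, 3 were detected widely enough to compare and 2 were lower in Cd24a-detected cells (66.7%, against 12.2% of all genes). They were Itga2b, the CD41 integrin subunit of megakaryocytes and early progenitors, with a difference of -1.85, and Ptprc, the pan-leukocyte phosphatase CD45, with -1.70, or -1.04 without cell 8. Ptprc medians were near the floor, at 0 CPM in Cd24a-detected cells and 1.95 CPM in Cd24a-undetected cells. It reached 5 counts in 3 of 11 Cd24a-detected cells and 4 of 8 Cd24a-undetected cells. Its difference was 0.55 within plate column 3. The depletion used CD45R, a form of CD45, and counts of the whole Ptprc gene do not single out that form. Itga2b reached 5 counts in 7 of 11 Cd24a-detected cells and 7 of 8 Cd24a-undetected cells, and the ranges overlapped from 0 to 457 CPM and 0 to 542 CPM.

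Later red cell genes, a list of membrane, skeleton, enzyme and globin genes that accumulate as red cells mature, were higher in Cd24a-detected cells more often than lower. Of 38 listed genes, 25 were compared, 12 were higher (48.0%, against 18.5% of all genes) and 1, Car1, was lower (12.2% of all genes were), with a median difference of 0.90. A gene seen on only 1 side, whichever it is, can enter the comparison and then has to differ, so these counts are descriptions. Among the 15 members seen in at least 12 kept cells, which must include both sides, 6 were higher (40.0%, against 16% of all genes). On the ratio of mean CPM in place of the difference of mean logs, 3 of 25 were higher (12%, against 8.72% of all genes). Tnfaip2, Blvrb, Mfsd2b and Car1 had been listed because they were known to vary among these cells. Leaving them out, 10 of the remaining 21 were higher, 0 were lower and the median was 0.90.

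Aqp1 (ENSMUSG00000004655, chromosome 6, 55336432 to 55348555), the water channel of the red cell membrane, had the largest difference of the list at 2.78. It had 31.4, 76.5 and 285 CPM in Cd24a-detected cells, against 0, 46.0 and 184 CPM in Cd24a-undetected cells. Every Cd24a-detected cell carried it at 5 counts or more, against 4 of the 8 Cd24a-undetected cells, and those 4 cells overlapped the Cd24a-detected range. Its difference was positive in each plate column (6.05, 1.38 and 1.92).

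The genes of red cell surface antigens were among the higher members. Rhd, which encodes the D antigen protein of the Rh complex, had a median of 62.8 CPM in Cd24a-detected cells and 1.18 CPM in Cd24a-undetected cells, with a difference of 2.21. Its partner Rhag, the Rh-associated glycoprotein, had 67.8 and 38.9 CPM on the Cd24a-detected and Cd24a-undetected sides and a difference of 1.30, or 0.78 without cell 8. The mean CPM of Rhag was not higher, at 75.6 in Cd24a-detected cells and 82.4 in Cd24a-undetected cells. In 48 of the 88 pairs the Cd24a-detected cell had the higher Rhag level. Kel, the Kell antigen protein, had 52.4 and 2.14 CPM on those sides and a difference of 2.0, although within plate column 2 it was -1.18. Tspo2, an erythroid member of the translocator protein family, had a difference of 2.23, and Ank1, the ankyrin that ties the spectrin skeleton to the membrane, had 1.45. On both sides these genes were present in some cells and not in others, and Rhd reached 5 counts in 7 of 11 Cd24a-detected cells and 2 of 8 Cd24a-undetected cells.

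The remaining higher members were Tnfaip2 (2.15), Hemgn (1.72), Sphk1 (1.72), Blvrb (1.30), Atp1b2 (1.16) and Hba-a1 (1.13). Blvrb, biliverdin reductase B, depended on 1 cell, with a difference of 0.26 without cell 10. The same cell carried the call of Atp1b2, a sodium pump subunit gene, which was 0.53 without it. Hba-a1, an alpha globin gene, stayed at or under 17.5 CPM in Cd24a-detected cells and 30.4 CPM in Cd24a-undetected cells, its difference was 0.94 without cell 11, and its near-identical copy makes the value uncertain. Cldn13, a claudin, reached 5 counts in 5 of 11 Cd24a-detected cells and 0 of 8 Cd24a-undetected cells and was seen in too few cells to be compared.

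The lower member, Car1, encodes carbonic anhydrase 1. It had 0, 40.8 and 1248 CPM in Cd24a-detected cells, against 0, 404 and 5252 CPM in Cd24a-undetected cells, with a difference of -2.35. Car2, the carbonic anhydrase 2 gene, had medians of 794 and 916 CPM on the Cd24a-detected and Cd24a-undetected sides and a difference of -0.047. Neither carbonic anhydrase gene was higher.

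In summed CPM the list was not higher. The 38 listed genes summed to 2582, 3529 and 5372 CPM in Cd24a-detected cells, against 2291, 3702 and 8623 CPM in Cd24a-undetected cells. As a mean of log2(CPM + 1) over the 25 compared genes, the list scored 3.05, 5.12 and 6.06 in Cd24a-detected cells, against 2.77, 4.07 and 5.94 in Cd24a-undetected cells. The score overlapped because Cd24a-detected cells 16 and 3 were low, at 3.05 and 4.06, and Cd24a-undetected cells 5 and 20 were high, at 5.94 and 5.42. The list median within plate columns 1, 2 and 3 was 1.85, 0.44 and 0.70. Without cell 10 the median was 0.62 and 8 of 25 members were higher, and without cell 18 4 were lower. Without cell 16 the median was 1.24.

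By calls at 1 or more in size, haem and iron genes were higher more often than lower on the difference of mean logs. On the ratio of mean CPM none was called higher, although the list median and sum were higher. The gene of the ubiquitous first enzyme of haem synthesis was among the lower ones. Of 28 listed genes, 25 were compared, 8 were higher (32.0%, against 18.5% of all genes) and 2 were lower (8.0%, against 12.2%), with a median difference of 0.58. Among the higher members beside Tfrc were Iscu, the scaffold on which iron-sulphur clusters are built (2.09), Ppox, protoporphyrinogen oxidase (1.90), Slc11a2, the endosomal iron transporter (1.81), and Blvra, biliverdin reductase A (1.69). Abcb10 (1.36) and Slc25a38 (1.27), transporters of the mitochondrial inner membrane, were higher as well. Iscu had 24.8, 101 and 173 CPM in Cd24a-detected cells, against 0.87, 30.6 and 150 CPM in Cd24a-undetected cells. On the ratio of mean CPM, 0 of the 25 genes were higher and 2 lower, against 8.72% higher and 8.3% lower of all genes. The list median on that ratio (log2) was 0.32, against 0.0063 for all genes. The 28 listed genes summed to 5019, 7093 and 8451 CPM in Cd24a-detected cells, against 4228, 5430 and 6240 CPM in Cd24a-undetected cells. Single cells carried some of these calls: without cell 5 Slc25a38 was 0.65, and without cell 10 Abcb10 was 0.95. Blvra was 1.69 with all cells and 1.0 without cell 22. The list median was 0.76, 0.48 and -0.016 within plate columns 1, 2 and 3.

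Alas1 (ENSMUSG00000032786, chromosome 9, 106233455 to 106248654) encodes the 5-aminolevulinate synthase found in all tissues. It had 0, 5.83 and 107 CPM in Cd24a-detected cells, against 38.9, 72.8 and 181 CPM in Cd24a-undetected cells. Every Cd24a-undetected cell carried it, 7 of 11 Cd24a-detected cells did, and the Cd24a-detected cell was the lower in 77 of the 88 pairs. Its difference was -3.17, with -2.60, -3.71 and -3.68 within plate columns 1, 2 and 3 and -3.54 to -2.87 with any 1 cell left out. Its exons overlap 4930500F10Rik, and reads of both cannot be told apart without strand. Alas2, the erythroid isoenzyme, reached 5 counts in 0 of 11 Cd24a-detected cells and 1 of 8 Cd24a-undetected cells. Aco1, the cytosolic aconitase that doubles as an iron regulatory protein, was the other lower gene at -2.40.

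Most erythroid regulators differed by less than a call. Of 26 genes for erythroid transcription factors and erythropoietin signalling, 22 were compared, 2 were higher, 1 was lower and the median difference was 0.020, against 18.5% higher and 12.2% lower of all genes. Without cell 10, 4 were higher and 2 lower, without cell 11, 4 were higher, and without cell 3, 3 were lower. Gata1, the master erythroid GATA factor, had 188, 319 and 598 CPM in Cd24a-detected cells, against 237, 406 and 562 CPM in Cd24a-undetected cells, with a difference of -0.20. Epor, the erythropoietin receptor gene, had medians of 216 and 121 CPM on the Cd24a-detected and Cd24a-undetected sides and a difference of -0.35, which ran from -0.53 to 0.31 with any 1 cell left out. Myb differed by -0.058 and Myc by 0.58, with Myc medians of 976 CPM in Cd24a-detected cells and 808 CPM in Cd24a-undetected cells.

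Klf3 (ENSMUSG00000029178, chromosome 5, 64803388 to 64832901), a Krüppel-like repressor whose gene is a known target of Klf1, stood out from that list. It had 1.30, 57.2 and 106 CPM in Cd24a-detected cells, against 0, 0.678 and 41.3 CPM in Cd24a-undetected cells. It reached 5 counts in 10 of 11 Cd24a-detected cells and 2 of 8 Cd24a-undetected cells, and the Cd24a-detected cell was the higher in 85 of the 88 pairs. The difference was 3.94, positive in every plate column (5.65, 2.38 and 4.26) and between 3.71 and 4.48 with any 1 cell left out, while the Klf1 difference was 0.56, or 0.079 without cell 10. With log2(CPM + 10) the Klf3 difference was 2.10, and with Cd24a called at 1 or more counts, which leaves cells 20 and 22 alone as Cd24a-undetected, it was 0.78. Its exons overlap the predicted gene Gm20033. Zfpm1, the GATA1 cofactor FOG1, was also higher, with 44.6 and 25.5 CPM as medians of the Cd24a-detected and Cd24a-undetected sides and a difference of 1.68. Nfe2, the large subunit of the NF-E2 factor, was lower, with 23.6, 132 and 790 CPM in Cd24a-detected cells, against 133, 386 and 1062 CPM in Cd24a-undetected cells, and a difference of -1.18, or -0.91 without cell 4.

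**Figure D3:**
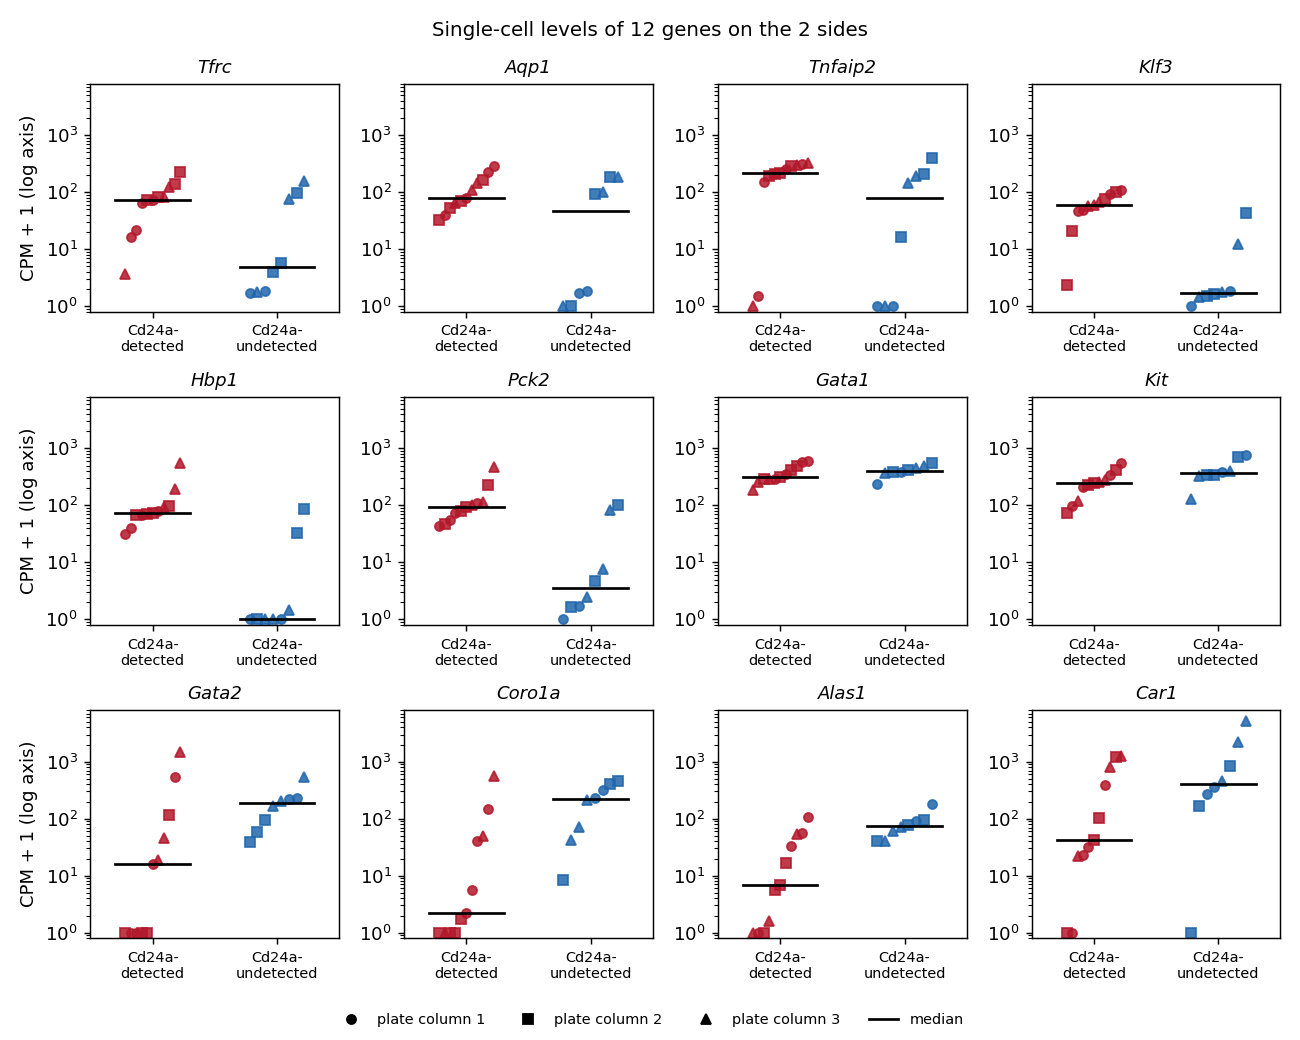
Levels of 12 genes (CPM + 1, log axis) in each of the 11 Cd24a-detected and 8 Cd24a-undetected cells. Points are cells, their shape gives the plate column and bars are medians. Klf3, Hbp1 and Pck2 are near the floor in most Cd24a-undetected cells, Coro1a and Gata2 in many Cd24a-detected cells, and Gata1 and Kit are present in all, with overlapping ranges in every panel.

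Early progenitor genes, a list of transcription factors, receptors and cytoskeletal genes of stem and multipotent progenitor cells, were mostly lower in Cd24a-detected cells. Of 30 listed genes, 20 were compared, with a median difference of -1.30. Of these, 12 were lower (60.0%, against 12.2% of all genes) and 4 were higher, a share near the 18.5% of all genes. Among the 13 members seen in at least 12 kept cells, 7 were lower (53.8%, against 9.65% of all genes), and on the ratio of mean CPM 5 of 20 were (25%, against 8.3% of all genes). Some list members had been chosen because they were known to vary among these cells. Leaving out Coro1a, Laptm5, Lcp1, Gata2 and Srgn, 7 of the remaining 15 were lower, 4 were higher and the median was -0.79.

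Gata2 (ENSMUSG00000015053, chromosome 6, 88193891 to 88207032), the GATA factor of stem and early progenitor cells that Gata1 replaces as erythroid cells mature, had 0, 14.8 and 1487 CPM in Cd24a-detected cells, against 38.4, 184 and 547 CPM in Cd24a-undetected cells. Every Cd24a-undetected cell reached 5 counts, as did 6 of 11 Cd24a-detected cells. The difference was -3.54, and the Cd24a-detected cell was the lower in 69 of the 88 pairs. Cells 3 and 16, both Cd24a-detected, had 1487 and 533 CPM, and because of them the mean CPM of the sides was much the same, 201 in Cd24a-detected cells and 194 in Cd24a-undetected cells. Its direction on the ratio of mean CPM was therefore not the same, at 0.052.

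Coro1a (ENSMUSG00000030707, chromosome 7, 126699773 to 126707787), an actin-binding coronin of blood cells, had 0, 1.24 and 557 CPM in Cd24a-detected cells, against 7.25, 222 and 449 CPM in Cd24a-undetected cells. The difference was -4.11, with -4.04, -6.65 and -1.50 within plate columns 1, 2 and 3. The highest Cd24a-detected values were again in cells 3 and 16, with 557 and 147 CPM. Coro1a exons overlap Bola2. Lcp1, the actin-bundling plastin of leukocytes, differed by -3.11, the homeobox gene Meis1 by -2.52 and Sox4 by -1.96.

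Some abundant members were present in every kept cell. Srgn, serglycin, the proteoglycan core of secretory granules, had 49.1, 149 and 950 CPM in Cd24a-detected cells, against 215, 517 and 686 CPM in Cd24a-undetected cells, with a difference of -1.38. Laptm5, a lysosomal membrane protein of blood cells, had 3.45, 143 and 413 CPM in Cd24a-detected cells, against 96.3, 308 and 523 CPM in Cd24a-undetected cells, with -1.36, or -0.89 without cell 4. The Cd24a-detected cell was the lower in 74 of the 88 pairs for Srgn and 70 for Laptm5. Angpt1, the gene of a secreted ligand of the Tie2 receptor, was seen in too few cells to be compared, in 0 of 11 Cd24a-detected cells and 5 of 8 Cd24a-undetected cells.

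The 4 higher members were no more than a share near the 18.5% of all genes. Among them were Runx1, the stem cell and progenitor RUNX factor (2.04), and Tgfbr3, a co-receptor for TGF-beta (1.44). The others were Nr3c1, the glucocorticoid receptor whose ligand sustains BFU-E self-renewal (1.24), and Fli1, an ETS factor of megakaryocytes (1.08). Runx1 had 0, 47.3 and 177 CPM in Cd24a-detected cells, against 0.518, 6.22 and 65.5 CPM in Cd24a-undetected cells. Nr3c1 had 0.599, 73.1 and 177 CPM in Cd24a-detected cells, against 0, 45.2 and 197 CPM in Cd24a-undetected cells, and its difference was 0.60 without cell 22. That of Fli1 was 0.68 without cell 16.

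As a mean of log2(CPM + 1) over the 20 compared genes, the early list scored 3.52, 4.20 and 6.91 in Cd24a-detected cells, against 3.97, 5.58 and 7.04 in Cd24a-undetected cells. Again cells 16 and 3 stood apart on the Cd24a-detected side, at 6.91 and 6.43, and cell 5 on the Cd24a-undetected side, at 3.97. The other Cd24a-detected cells had 4.50 or less and the other Cd24a-undetected cells 5.02 or more. Cell 16 had the least Cd24a of its side, at 18.6 CPM. The list median was -1.42, -0.21 and -0.89 within plate columns 1, 2 and 3, and ran from -1.52 without cell 16 to -1.07 without cell 10.

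**Figure D4:**
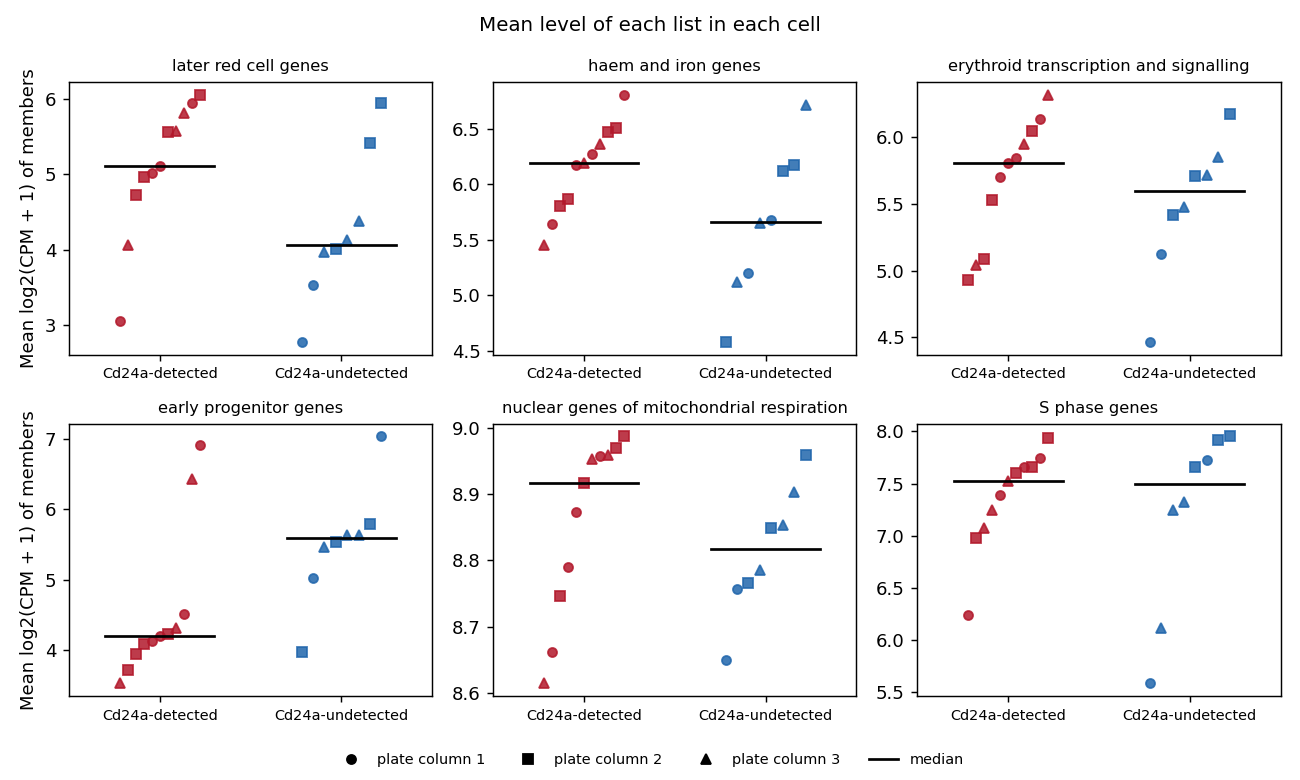
Mean log2(CPM + 1) over the compared members of 6 gene lists in each of the 11 Cd24a-detected and 8 Cd24a-undetected cells. Points are cells, their shape gives the plate column and bars are medians. The later red cell median is 5.12 in Cd24a-detected and 4.07 in Cd24a-undetected cells and the early progenitor median 4.20 and 5.58 on those sides, and cells of each side reach into the range of the other in every panel.

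Cell cycle and growth genes were called at or under the rate of all genes, 18.5% higher and 12.2% lower. Of 39 S phase genes, 39 were compared, 5 were higher (12.8%), 1 was lower (2.56%) and the median difference was 0.045. Among the higher ones were Dscc1, a subunit of a clamp loader complex (2.86), the helicase Hells (1.69), the uracil glycosylase Ung (1.61) and the ATPase Atad2 (1.06), while the replication helicase genes Mcm2 to Mcm7 lay between -0.17 and 0.32. Without cell 12, 3 S phase genes were higher, with Ung at 0.96, Atad2 at 0.41 and Hells at 1.01. Of 47 G2 and M phase genes, 45 were compared, 5 were higher (11.1%) and 5 lower (11.1%), with a median of -0.084, so the lower share was near that of all genes. Without cell 10, 2 were higher, and without cell 11, 9 were lower. That median was 1.32, 0.10 and -1.97 within plate columns 1, 2 and 3. Cell 16, Cd24a-detected, and cell 12, Cd24a-undetected, had the most G2 and M phase transcripts, with 17359 and 14458 CPM in sum.

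Nuclear genes of mitochondrial respiration had no called member, with 0 of 27 higher, 0 of 27 lower, a median of 0.076 and a range from -0.92 to 0.62. Of 30 genes for ribosome biogenesis and translation, 2 were higher and 0 lower, with a median of 0.23. The higher genes, both for ribosome assembly, were Nop2 at 1.05, or 0.80 without cell 12, and Rrs1 at 1.29, or 0.51 without cell 10. Of 18 glycolysis genes, 16 were compared and 1 was higher, the lactate transporter gene Slc16a1, at 1.01, or 0.027 without cell 20. The shares called in these 3 lists lie under the 18.5% higher and 12.2% lower of all genes.

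**Figure D5:**
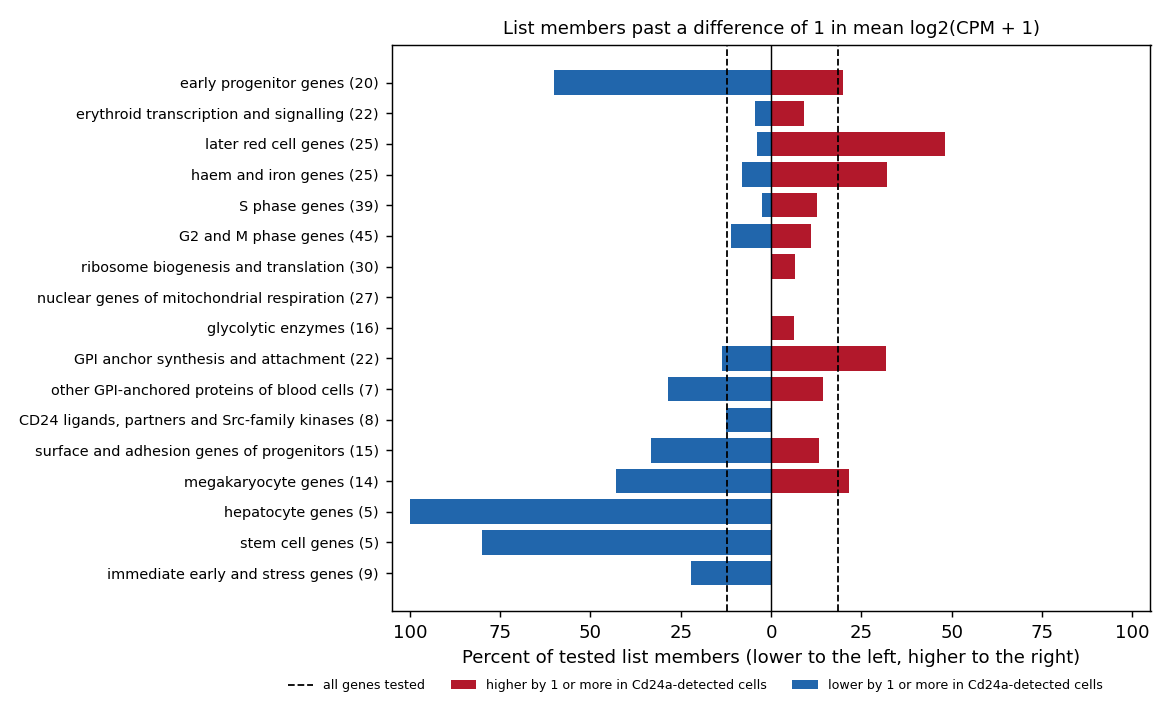
Percent of compared members that were higher (right) or lower (left) by 1 or more in mean log2(CPM + 1) in Cd24a-detected cells than in Cd24a-undetected cells, for lists with at least 5 compared members (number in brackets). Dashed lines give the 18.5% higher and 12.2% lower of all genes. Later red cell genes reach 48.0% higher and early progenitor genes 60.0% lower, while mitochondrial respiration has 0 on both sides.

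The machinery behind the anchor of CD24 was mixed. Of 27 listed genes of GPI anchor synthesis and attachment, 22 were compared, 7 were higher (31.8%, against 18.5% of all genes), 3 were lower (13.6%, against 12.2%) and the median difference was 0.14, which ran from -0.070 to 0.47 with any 1 cell left out. On the ratio of mean CPM 2 were higher and 2 lower (9.09% each, against 8.72% and 8.3% of all genes). The higher genes were Pigk (1.70) and Gpaa1 (1.61), subunits of the transamidase that joins anchor and protein, Pigx (1.69) and Pigb (1.40), which serve mannose addition, Pigo (1.60), which adds ethanolamine phosphate, and Pigl (1.57) and Pigh (1.02), which act in the opening steps. The lower genes were Pigc (-2.92), which also acts in the opening step, and Pigg (-2.10) and Pign (-1.76), which add ethanolamine phosphate. Gpaa1 had 39.8, 186 and 385 CPM in Cd24a-detected cells, against 0.87, 129 and 302 CPM in Cd24a-undetected cells, and its difference was -0.40 within plate column 2 and 0.91 without cell 22. Pigh was 0.62 without cell 5.

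Tmem246 (ENSMUSG00000039611, chromosome 4, 49584506 to 49597876) was not on that list. It encodes the Golgi enzyme, also called PGAP4, that adds a side chain to GPI anchors. It had 0, 56.9 and 132 CPM in Cd24a-detected cells, against 0, 0.232 and 0.87 CPM in Cd24a-undetected cells, all of which are under the floor of 3 counts. It reached 5 counts in 8 of 11 Cd24a-detected cells and 0 of 8 Cd24a-undetected cells, so it entered the comparison through the Cd24a-detected side alone. The difference was 4.14, with 4.39, 4.28 and 3.57 within plate columns 1, 2 and 3. Of the 5 cells left out for low Klf1, 2 carried Tmem246, cell 1 with 76.7 CPM and cell 23 with 116 CPM.

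Other GPI-anchored proteins and the partners of CD24 did not follow Cd24a as lists. Of 24 other GPI-anchored proteins of blood cells, 7 were compared, Hyal2, a hyaluronidase, was higher (1.06, or 0.61 without cell 11), Cd48 (-1.61) and Cd55 (-1.38) were lower, and the median difference was -0.53. The shares were 14.3% higher and 28.6% lower, against 18.5% and 12.2% of all genes. Of 21 CD24 ligands, partners and Src-family kinases, 8 were compared, 0 were higher and 1, the tetraspanin gene Cd9, was lower (-1.83), against 18.5% and 12.2% of all genes. Without cell 15, 2 were higher, and without cell 2, 2 were lower, and 2 were higher on the mean within plate columns. Lyn, the Src-family kinase of erythropoietin signalling, had -0.97. Of 34 surface and adhesion genes of progenitors, 15 were compared, with 13.3% higher and 33.3% lower, against 18.5% and 12.2% of all genes. Endod1 (1.30) and Icam2 (1.11) were higher, the values being 0.91 without cell 5 for Endod1 and 0.24 without cell 6 for Icam2. The lower ones were Cd9, Selplg (-1.69), the P-selectin ligand, Itgal (-1.64) and Itgb2 (-1.51), which together form the integrin LFA-1, and Cd44, the hyaluronan receptor, at -1.39, or -0.96 without cell 13.

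The 15 genes with the largest positive differences, among genes with a mean of 20 CPM or more, ran from 3.60 to 4.95. All 15 were positive in each plate column, and with any 1 cell left out the smallest difference among them was 3.27. The genes were picked for the size of the difference over these same cells, so this agreement is a description and not support. At the top was Hbp1 (ENSMUSG00000002996, chromosome 12, 31926254 to 31950535), an HMG-box repressor of cell cycle genes. It had 30.5, 71.4 and 543 CPM in Cd24a-detected cells, against 0, 0 and 87.0 CPM in Cd24a-undetected cells. All 11 Cd24a-detected cells carried it, against 2 of 8 Cd24a-undetected cells, and the 5 cells with low Klf1 carried it as well, at 29.9 to 629 CPM.

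Pck2 (ENSMUSG00000040618, chromosome 14, 55540266 to 55551242), the mitochondrial phosphoenolpyruvate carboxykinase, had 41.9, 93.4 and 472 CPM in Cd24a-detected cells, against 0, 2.55 and 99.9 CPM in Cd24a-undetected cells, and a difference of 4.01. Tbl3, a component of the small-subunit processome of ribosome assembly, had 86.3, 152 and 445 CPM in Cd24a-detected cells, against 0, 2.34 and 252 CPM in Cd24a-undetected cells, and a difference of 4.03. Both were present in every Cd24a-detected cell, while Pck2 reached 5 counts in 4 and Tbl3 in 3 of the 8 Cd24a-undetected cells. Zfp644, a zinc finger gene, was higher in the Cd24a-detected cell in 85 of the 88 pairs, with a difference of 4.12.

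The other genes of the 15 were Unk (4.0), 2700097O09Rik (3.98), Mcts2 (3.98), Fam213a (3.97), Klf3, Fam118b (3.77), the mitochondrial RNA helicase gene Supv3l1 (3.67), the lipid droplet hydrolase gene Ldah (3.65), the endoglycosidase gene Engase (3.62), the RNA helicase gene Ddx17 (3.60) and Tmem246. Like Tmem246, Fam118b and Engase reached 5 counts in 8 of 11 Cd24a-detected cells and 0 of 8 Cd24a-undetected cells. Each of these genes entered the comparison through the Cd24a-detected side alone. Mcts2 is a retrogene copy of Mcts1, so its reads are uncertain. Exons of 9 of the 15 genes overlap another gene, Klf3, Hbp1, Pck2, Tbl3 and Zfp644 among them, and their reads cannot be assigned to a strand.

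The 15 genes with the largest negative differences ran from -4.21 to -3.25, and 13 of them were negative in each plate column. They too were picked by size over these same cells, so that count is a description. Rad52 (ENSMUSG00000030166, chromosome 6, 119902698 to 119922828), a DNA recombination gene, had 0, 0 and 38.5 CPM in Cd24a-detected cells, against 0.488, 66.6 and 208 CPM in Cd24a-undetected cells, with the largest size at -4.21. Pla2g4a (ENSMUSG00000056220, chromosome 1, 149829618 to 149961290), the cytosolic phospholipase A2 that frees arachidonic acid, had 0, 2.88 and 74.3 CPM in Cd24a-detected cells, against 33.6, 87.1 and 169 CPM in Cd24a-undetected cells. It was present in all 8 Cd24a-undetected cells and 6 of 11 Cd24a-detected cells, the Cd24a-detected cell was the lower in 83 of the 88 pairs, and the difference was -3.62.

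Flna, the actin cross-linker filamin A, had 0, 28.7 and 138 CPM in Cd24a-detected cells, against 34.3, 175 and 341 CPM in Cd24a-undetected cells, with a difference of -3.44. Elmo1, which helps activate the GTPase Rac, differed by -3.90, and Coro1a was the other actin gene among them. Other genes of the 15 were Shisa5 (-3.96), the interferon-induced membrane protein gene Ifitm1 (-3.87), Lrrfip1 (-3.54), Gata2, the selenium transport protein gene Selenop (-3.48), Fbxl20 (-3.43), Mettl21a (-3.32), Madd (-3.27) and Phkg2 (-3.25). Selenop was 1.03 within plate column 2 and Mettl21a 0.00 within column 1. Exons of 5 of the 15, Coro1a, Elmo1, Selenop, Fbxl20 and Phkg2, overlap another gene.

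The genes whose levels followed that of Cd24a most closely were ranked by Spearman's rho over the 19 kept cells, among 5065 genes seen in at least 12 of them. The rule on Cd24a itself separates high from low cells, so rho within the 11 Cd24a-detected cells is given beside it, and both are descriptions of cells from 1 sample that differ in depth. Of the 5 closest genes 4 are given. Mrpl2, a mitochondrial ribosomal protein gene, had a rho of 0.77 over 19 cells and 0.63 within the Cd24a-detected side. Its levels were 107, 187 and 309 CPM in Cd24a-detected cells, against 46.8, 90.7 and 241 CPM in Cd24a-undetected cells, and its difference was 0.87, or -0.21 when the cells with low Klf1 were kept. Rprd2 had 0.75 and 0.26, Gclm, the modifier subunit of glutathione synthesis, 0.74 and 0.33, and Pck2 0.73 and 0.29, over 19 cells and within the Cd24a-detected side.

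Markers of other cell types varied widely in level between cells of both sides, and several were lower in Cd24a-detected cells. Megakaryocyte genes summed to 2818 and 2858 CPM in Cd24a-detected cells 3 and 16, and to 2558 and 3004 CPM in Cd24a-undetected cells 10 and 12. The 30 megakaryocyte genes summed to 53.2, 550 and 2858 CPM in Cd24a-detected cells, against 434, 975 and 3004 CPM in Cd24a-undetected cells, and 10 of the 30, the defining Pf4, Ppbp, Itgb3 and Gp6 among them, were at 0 in every kept cell. Of 14 compared, 3 were higher (21.4%, against 18.5% of all genes), Zfpm1 with 1.68 at the top, and 6 were lower (42.9%, against 12.2%), including Gp5 (-2.62). The megakaryocyte median was -0.40, or 0.091 without cell 12. The 20 stem cell genes summed to 6.91, 152 and 1097 CPM in Cd24a-detected cells, against 205, 332 and 1344 CPM in Cd24a-undetected cells, with 4 of 5 compared lower (80.0%, against 12.2% of all genes) and 1, at 0.57, seen in at least 12 kept cells. These lists move with the early progenitor genes and share some of them, and their part in that result was not tested. Prtn3, a myeloid granule protease gene, was higher in Cd24a-detected cells at 1.68, and Cst7, a cystatin gene of the same list, was lower at -3.13, in a list of 29 genes of which 4 were compared. Of the 29, 15 were at 0 in every kept cell, among them Elane. That list summed to 216, 392 and 1352 CPM in Cd24a-detected cells, against 278, 485 and 1043 CPM in Cd24a-undetected cells.

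Hepatocyte genes were lower in Cd24a-detected cells in 5 of 5 compared (12.2% of all genes were), with a median difference of -1.24. Of the 5, 1 was seen in at least 12 kept cells. Without cell 20, 2 of the 5 were lower, and without cell 10, 3 were, and Alb, the albumin gene, differed by -0.23 in place of -1.02. They summed to 6.28, 51.8 and 271 CPM in Cd24a-detected cells, against 35.9, 140 and 1829 CPM in Cd24a-undetected cells, and Apob, Fga and Serpina1a were at 0 in every kept cell. The 1829 CPM were those of cell 10, and the next Cd24a-undetected cell had 248 CPM. Cell 10 also had the least Klf1, the lowest later red cell score and the highest early progenitor score of its side, and the part of hepatocyte RNA in those values was not tested. Mast cell and basophil genes summed to 0, 35.2 and 84.1 CPM in Cd24a-detected cells, against 7.44, 90.6 and 884 CPM in Cd24a-undetected cells. The highest of these sums were in Cd24a-undetected cells 6, 22 and 20, at 884, 857 and 480 CPM. Endothelial and stromal genes summed to 41.7, 149 and 203 CPM in Cd24a-detected cells, against 80.0, 243 and 463 CPM in Cd24a-undetected cells.

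Lymphoid and macrophage genes were sparser still. The 20 lymphoid genes, of which 0 were seen widely enough to compare, summed to a median of 0.62 CPM in Cd24a-detected cells and 2.65 CPM in Cd24a-undetected cells. Of 18 macrophage genes 1 was compared, the iron exporter gene Slc40a1, which erythroid cells also express and which was higher at 1.14, or 0.66 without cell 5. Among 24 immediate early and stress genes, 9 were compared, 0 were higher and Jund (-1.93) and Ier2 (-1.23, or -0.84 without cell 2) were lower, with a median of 0.20. The shares were 0.0% higher and 22.2% lower, against 18.5% and 12.2% of all genes. Jund stayed at or under 5.22 CPM in Cd24a-detected cells and 10.2 CPM in Cd24a-undetected cells. With log2(CPM + 10) its difference was -0.53 and no longer a call. Mpo, the myeloperoxidase gene, reached 5 counts in 5 of 11 Cd24a-detected cells and 2 of 8 Cd24a-undetected cells, and Cd34, a stem and progenitor surface antigen, in 0 of 11 and 0 of 8.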

How the data were processed

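The authors deposited a table of raw counts with a column for every one of the 24 cells and a row for every gene. STAR 2.4, featureCounts and GRCm38 are named for its making, per the submitters' processing notes. The annotation release, how reads were assigned to genes, and whether cells had been filtered were not given in the sources used here. Libraries were not stranded and carry no molecular identifiers, per the labels' protocols. PCR copies are therefore not independent molecules, and the floors cover counting error only. Reads spread along the transcript, so long genes gain more of them at equal abundance. Of 49585 gene rows, 49326 matched a symbol in GENCODE M21, which gave coordinates and exon overlaps.

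Counts were divided by the column total and scaled to CPM. All 24 cells form 1 group with no animal named, so no test was run. Calls, lists, plate-column and leave-one-out values were computed with Python 3.11.15, numpy 2.4.6, pandas 2.3.3 and scipy 1.17.1. Only the difference of mean logs was tested on simulated data. The simulated spread between cells was smaller than that of many named genes, so that test does not bear on the calls. Factors from edgeR 4.0.16 and DESeq2 1.42.0 (R 4.3.3) served only as alternative scalings. Other alternatives changed the pseudocount of 1, the gene filter, either threshold, the depth, the plate-column weighting and the measure, or left out cells.

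The cells, thresholds and 24 gene lists were chosen with earlier results of these data known, including that early and later genes vary in opposite directions, so that pattern is not independent support. Genes were named by a rule: the genes of the threshold, 12 lineage genes, the 15 largest differences each way at a mean of 20 CPM or more without predicted models, up to 3 abundant called members a list, and the 5 genes of highest rho with Cd24a. The other named genes were chosen after their values were seen. The list symbols Pigy, Folr4 and Spink3 were not matched and are not analysed here, and several genes picked by the rule are not reported here.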

Additional observations from a re-analysis of the deposited data

Results flagged for a closer look

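Across 29 per-cell measures and list sums of the 8 Cd24a-undetected cells, 5 had a cell whose distance to its nearest neighbour was large for the range of the side. Chance alone marks about 1 in 20 groups in this way. Cell 10 had the lowest sum of haem and iron genes, 4228 CPM, with the next cell at 5308 and the other end at 6240 CPM, and the highest sum of hepatocyte genes, 1829 CPM, with the next cell at 248 and the other end at 35.9 CPM. Cell 12 had the highest sum of G2 and M phase genes, 14458 CPM, with the next cell at 9012 and the other end at 4629 CPM, and of stem cell genes, 1344 CPM, with the next cell at 561 and the other end at 205 CPM. Cell 20 had the lowest sum of glycolysis genes, 7179 CPM, with the next cell at 10268 and the other end at 13017 CPM.

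Cd24a transcripts were also present in cells outside the comparison. Of the 5 cells left out because Klf1 was under 10 CPM, cells 1, 9, 19 and 23 had 87.5, 52.0, 624 and 10.3 CPM of Cd24a, above the floor that 3 counts set, and cell 24 had 2.44 CPM, at that floor. Cell 19 had more Cd24a than any of the 11 Cd24a-detected cells, whose highest was 388 CPM.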

How the results depend on the processing

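With any 1 cell left out, 1311 to 1591 genes were higher, 908 to 1083 lower and 0 to 1 without overlap. A pseudocount of 10 gave 408 higher and 309 lower genes, detection in at least 12 cells 813 and 489, and the ratio of mean CPM 669 higher genes and a Gata2 difference of 0.052. Among the largest differences, that ratio gave 2.96 for Hbp1, 1.57 for Tbl3, 1.40 for Unk and -1.10 for Lrrfip1. Over stem cell genes the median was -0.34 with no filter and 0.57 with detection in at least 12 cells. Calling Cd24a at 1 or more counts left cells 20 and 22 alone as Cd24a-undetected and gave 2196 higher and 1770 lower genes and 100 without overlap. List medians were then -0.048 for later red cell, 0.42 for depletion antigen, -2.73 for macrophage, -4.76 for mast cell and basophil, 1.34 for megakaryocyte and -1.50 for myeloid genes. Called genes that changed sign there included Blvrb (-0.30), Car1 (2.96), Cd55 (0.82), Cd9 (1.51), Icam2 (-0.044), Itga2b (1.60), Jund (0.054), Nop2 (-0.53), Prtn3 (-1.52) and Slc40a1 (-2.73). Calls lost there among the largest differences were Klf3 (0.78), Mcts2 (0.78), Madd (-0.94) and Mettl21a (-0.91). With no Klf1 rule, Blvrb was -0.43 and Mrpl2 -0.21. Without cells 10 and 16, an alternative chosen after seeing the data, 1 gene had no overlap. The cause of these shifts was not tested. Median-of-ratios scaling set the median of all genes at 0.066, against 0.11, and a Cd24a threshold of 10 CPM gave the same sides. No paired analysis was possible because all cells form 1 group. At 1135880 to 2155010 counts a cell, genes under the floor cannot be told apart as absent or missed.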

Other observations

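No gene kept its sides apart over all cells, and 2 genes, found by looking through all genes compared, did so once a single cell was left out. Ccnd3, the cyclin D3 gene that drives entry into S phase, had 91.4 to 316 CPM in the Cd24a-detected cells other than cell 16, against 321 to 642 CPM in the Cd24a-undetected cells. Cell 16, the Cd24a-detected cell with the least Cd24a, had 493 CPM, and the difference with all cells was -0.97. Srsf3, a splicing factor gene, had 580 to 830 CPM in the Cd24a-detected cells other than cell 17, against 260 to 570 CPM in the Cd24a-undetected cells. Cell 17 had 523 CPM of Srsf3, and the difference with all cells was 0.63. Both differences lay under the size of a call, and both genes were picked after their values were seen.

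The 5 cells with Klf1 under 10 CPM differed from both sides in Coro1a, at 944 to 2558 CPM. Those values lie above every Cd24a-detected cell, the highest of which had 557 CPM, and above every Cd24a-undetected cell, the highest of which had 449 CPM. Their Aqp1 was at 0 to 2.28 CPM and their Klf3 at 0 to 14.6 CPM.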
